A study of Homo sapiens with 6 samples.

Results

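The genes described here are 51 human interferon-stimulated genes and transcription factors of the interferon response, read by polyA RNA sequencing of U2OS cells depleted of SURF2. They were taken from the count table by gene symbol from a fixed list, which leaves out genes of antigen presentation and the proteasome and uses no measured value. All 51 were among the 58051 genes of the table, and 47 had enough counts to be tested among 17561 genes. U2OS is an established human osteosarcoma line. The groups were siSURF2 (3 libraries, cells given an siRNA against SURF2) and siSCR (3 libraries, cells given a scrambled siRNA), with no other treatment named. Both groups received siRNA in 2 transfections at a 49 h interval and were taken at 96 h, so cells without siRNA were not compared. The sequence of the siRNA, whether it was 1 duplex or a pool, and whether the libraries came from separate cultures are not stated in the labels. The p-values therefore measure only how far these libraries differed from one another, and that spread may be technical. The title of the series concerns SURF2, MDM2 and the nucleolar stress response. Interferon was not named among the treatments.

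Type I interferons bind a receptor that activates the kinases JAK1 and TYK2, which phosphorylate STAT proteins. A complex that holds STAT2 and IRF9 then binds the interferon-stimulated response element (ISRE) in the promoters of antiviral genes. Interferon gamma acts mainly through another element, GAS. RNA sensors such as RIGI and IFIH1 lie upstream of interferon production and are induced by it as well, and many of these genes are also transcribed at a basal level in cells given no interferon.

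The promoters of the listed genes carry the ISRE far more often than promoters at large. RefSeq promoter windows (build GRCh38.p14, 250 bases before to 50 bases after a gene's start) were found for 39 of the 51 genes. The ISRE letters GAAANNGAAA, searched on both strands, occurred in windows of 26 of these 39 genes (66.7%), against 4.38% of the 27305 genes in the promoter table and 3.87% of the 11910 tested genes found in it. The GAS letters TTCNNNGAA occurred in 12 of the 39 (30.8%), against 9.38% of all genes in the table. The ISRE was present in 5 of 8 genes that were higher with siSURF2, in 7 of 8 that were lower, in 12 of 20 that did not pass the test and in 2 of 3 that were not tested. These counts leave out 3 genes that were higher (GBP2, MX2 and TRIM22) and 4 that were lower (DHX58, IFIT2, IFITM2 and IRF2), for which no window was at hand, so 4 of the 8 largest changes are not among them. A match describes letters only, and its occupancy was not measured.

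In the window nearest each gene's 5′ end, 24 of the 39 genes held the ISRE, 15 of them more than once and 3 with bases shared with a GAS match. Of the 24, 10 passed the test, and HERC5 and IFITM1 were not tested. Over all genes tested, 52.0% passed, so having the element did not come with more calls. Among these 10, DDX60, DTX3L, IFITM3, IFIT5, ISG20 and OAS3 lost the call when certain single libraries were left out. The matches of the 10 are shown by direction of change. Whether the element or its letters bear on the direction was not tested. Each is a stretch of 30 bases on the gene's own strand from GRCh38.p14, with the match nearest the start in capitals. A match on the opposite strand begins with TTTC instead of GAAA. The 4 genes that were higher with siSURF2 carried these stretches:
DDX60, chr4:168318786-168318815, minus strand: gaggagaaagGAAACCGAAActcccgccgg
DTX3L, chr3:122564322-122564351, plus strand: ccagggaagcGAAACTGAAActttgcgccc
IFI44L, chr1:78620365-78620394, plus strand: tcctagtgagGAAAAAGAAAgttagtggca
IFITM3, chr11:320876-320905, minus strand: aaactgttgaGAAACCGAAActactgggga
The 6 genes that were lower with siSURF2 carried these stretches:
IFIT3, chr10:89327865-89327894, plus strand: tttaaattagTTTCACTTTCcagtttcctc
IFIT5, chr10:89414554-89414583, plus strand: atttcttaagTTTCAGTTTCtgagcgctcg
ISG20, chr15:88638937-88638966, plus strand: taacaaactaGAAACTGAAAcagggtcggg
OAS3, chr12:112938452-112938481, plus strand: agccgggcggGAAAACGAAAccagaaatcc
PLSCR1, chr3:146544667-146544696, minus strand: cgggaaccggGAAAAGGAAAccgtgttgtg
TRIM21, chr11:4393666-4393695, minus strand: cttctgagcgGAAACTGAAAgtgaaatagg
The match of DTX3L lies in the region where DTX3L and PARP9 start on opposite strands. The same bases are the match in a PARP9 window, so they count for both genes in the shares above. IFI44L and IFIT3 had the highest and the lowest log2 fold change of these 10 genes. Their 250 bases before the start follow, with ISRE matches in capitals. IFI44L holds 2 matches within a repeated stretch.
IFI44L, chr1:78620198-78620447, plus strand: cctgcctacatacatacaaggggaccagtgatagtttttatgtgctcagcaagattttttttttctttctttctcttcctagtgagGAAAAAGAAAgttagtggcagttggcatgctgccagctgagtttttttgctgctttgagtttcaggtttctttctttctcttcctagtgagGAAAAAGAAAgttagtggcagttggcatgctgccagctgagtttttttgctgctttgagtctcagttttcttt
IFIT3, chr10:89327747-89327996, plus strand: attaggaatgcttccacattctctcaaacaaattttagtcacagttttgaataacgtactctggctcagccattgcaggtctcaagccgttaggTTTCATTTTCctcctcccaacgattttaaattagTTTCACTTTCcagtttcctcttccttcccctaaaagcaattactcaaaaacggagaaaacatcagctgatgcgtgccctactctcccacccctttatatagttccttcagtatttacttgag

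The siRNA lowered its target in each of the 3 siSURF2 libraries. Levels are given as CPM, counts scaled to a common library size with TMM factors, which correct for composition. SURF2 (ENSG00000148291, chromosome 9, 133356552 to 133361169, GRCh38) had 3.73, 3.56 and 3.19 CPM in siSURF2 replicates 1, 2 and 3, against 36.1, 35.7 and 32.3 CPM in siSCR replicates 1, 2 and 3. It was 9.94-fold lower with siSURF2, with a log2 fold change of -3.31 ± 0.10 (SE) and an adjusted p of 3.9e-20 from edgeR's quasi-likelihood F-test, adjusted over all genes tested by Benjamini-Hochberg. This test and a threshold of 0.05 apply to every adjusted p below unless another tool is named. Counts assigned to genes ran from 17123333 to 19688089 per library, and the groups lay apart on the first principal component (71.6% of the variance). Of the mesenchymal markers, VIM, SPARC, COL1A1 and RUNX2 were present in all 6 libraries, while SP7 and COL1A2 had 0 to 3 counts and TWIST1 had 0. The 10 mesenchymal markers summed to 3563 to 3917 CPM with siSURF2 and 3240 to 3300 CPM with siSCR, and 3 of the 7 tested rose and 1 fell, with PRRX1 2.24-fold higher and ALPL 4.24-fold lower. The blood cell markers CD3E, LYZ and CLEC4C were at 0 in all libraries. The 12 blood cell markers summed to 7.68 to 8.45 CPM with siSURF2 and 8.05 to 9.18 CPM with siSCR. The 7 epithelial markers summed to 1034 to 1111 CPM with siSURF2 and 1479 to 1606 CPM with siSCR, mostly KRT8 and KRT18. They did not move as one, since CDH1 was 6.60-fold lower while EPCAM was 1.98-fold and CLDN4 2.11-fold higher with siSURF2. The 5 endothelial markers summed to 3.71 to 4.84 CPM with siSURF2 and 6.35 to 8.30 CPM with siSCR. The part of the mesenchymal, epithelial and endothelial differences in the results below was not tested. In bulk RNA, fewer expressing cells and less RNA per cell cannot be told apart.

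The interferon-stimulated genes changed in both directions with siSURF2. Of the 47 tested, 11 rose (23.4%), 12 fell (25.5%) and 24 did not pass. Over all genes tested, 52.0% passed, 25.8% higher and 26.2% lower, so the shares among the interferon-stimulated genes were near the background. The largest increases were in GBP2, IFI44L, MX2 and TRIM22, and the largest decreases in DHX58, IFIT3, ISG20 and RSAD2. These 8 were the genes past the threshold with an absolute log2 fold change of at least 0.5, a size that 23.8% of all genes reached along with the threshold. The median log2 fold change of the 47 genes was 0.05 (quartiles -0.17 and 0.16), against 0.00 (quartiles -0.27 and 0.31) for all genes tested. Their summed level was 1404, 1442 and 1391 CPM with siSURF2, against 1356, 1386 and 1467 CPM with siSCR, and the 2 groups overlapped. With upper-quartile factors the split became 15 higher and 9 lower, and that of all genes 5154 higher and 3986 lower. Without siSURF2 replicate 1 there were 7 lower, and without siSURF2 replicate 2 or without siSCR replicate 1 there were 7 higher.

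**Figure D1:**
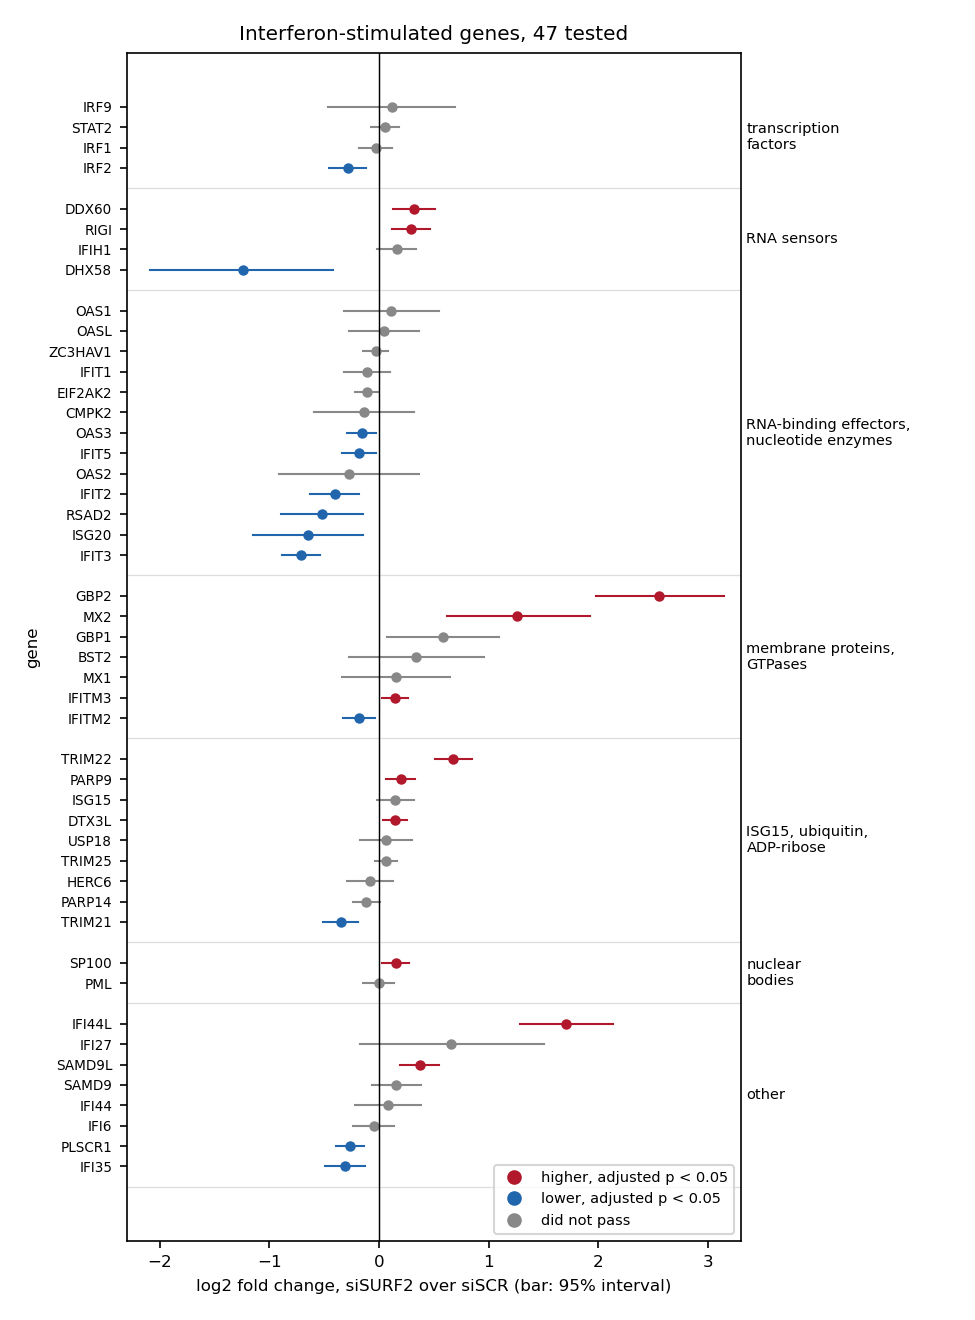
Log2 fold change of siSURF2 over siSCR for the 47 tested interferon-stimulated genes, grouped by role. Points are fitted values, bars are 95% intervals over 6 libraries, and colours mark the 11 genes that were higher, the 12 that were lower and the 24 that did not pass.

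**Figure D2:**
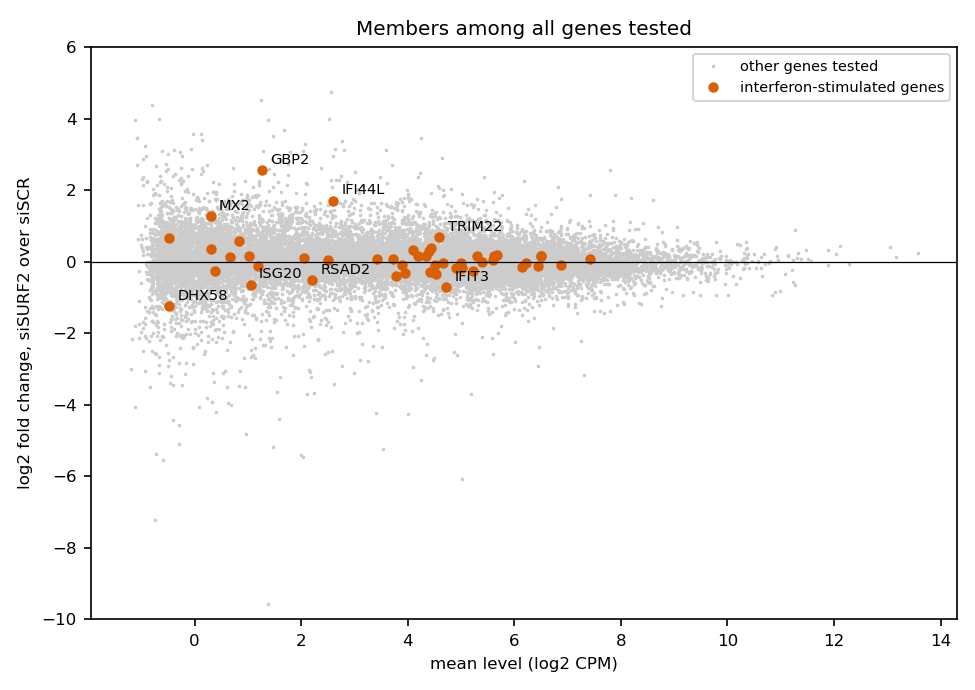
Log2 fold change of siSURF2 over siSCR against mean level in log2 CPM for all 17561 genes tested, with the 47 interferon-stimulated genes as larger points and the 8 genes past the threshold with an absolute log2 fold change of at least 0.5 named. Apart from GBP2, IFI44L, MX2 and DHX58, the interferon-stimulated genes lay between -1 and 1.

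Of the 5 transcription factors, 1 of the 4 tested fell and 0 rose with siSURF2, against 26.2% lower and 25.8% higher of all genes tested. At an unadjusted p under 0.05 and with DESeq2 or limma-voom, 0 rose also. IRF2, which competes with IRF1 at the same element and mostly represses, had 20.0, 17.5 and 20.0 CPM with siSURF2, against 24.8, 21.8 and 23.6 CPM with siSCR. All siSURF2 libraries were below all siSCR libraries, and IRF2 fell with a log2 fold change of -0.29 ± 0.08 and an adjusted p of 0.0048. STAT2, a subunit of the ISRE-binding complex, had 49.0, 47.6 and 51.7 CPM with siSURF2, against 47.8, 46.0 and 49.2 CPM with siSCR. Its groups overlapped, and the 95% interval of its log2 fold change ran from -0.07 to 0.18. IRF1, an activator that is itself induced by interferon gamma, had 24.8, 25.1 and 25.2 CPM with siSURF2, against 25.0, 25.8 and 25.9 CPM with siSCR. It was the transcription factor nearest to a log2 fold change of 0, with an interval from -0.18 to 0.12. A transcript on the opposite strand shares 1716 of its exon bases and had 430 counts in all, against 2854 for IRF1. IRF9, the DNA-binding subunit of the ISRE complex, was low in both groups. It had 1.21, 1.39 and 2.00 CPM with siSURF2, against 1.78, 1.28 and 1.23 CPM with siSCR, with a log2 fold change of 0.11 ± 0.28 and an adjusted p of 0.76. Of its 50-base stretches, 43.6% also occur in other genes, chiefly a readthrough gene on the same strand, so its counts are uncertain. IRF7, which amplifies type I interferon production, was not tested and had 5, 6 and 3 counts with siSURF2, against 4, 1 and 3 counts with siSCR.

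The 4 RNA sensors diverged, with 2 higher, 1 lower and 1 that did not pass, while 25.8% of all genes tested were higher and 26.2% lower. RIGI, which detects viral RNA ends, had a log2 fold change of 0.29 ± 0.08 and an adjusted p of 0.0041. DDX60, a helicase reported to assist RIGI, rose by 0.32 ± 0.09 on the log2 scale with an adjusted p of 0.0062. Both genes were higher in all siSURF2 libraries than in all siSCR libraries, but DDX60 missed the threshold without siSCR replicate 1 (log2 fold change 0.20, adjusted p = 0.08). IFIH1, the sensor of long double-stranded RNA, had 18.7, 20.3 and 18.3 CPM with siSURF2, against 15.7, 17.2 and 18.2 CPM with siSCR. Its groups did not overlap, but it did not pass the test (log2 fold change 0.16 ± 0.09, adjusted p = 0.12). DHX58, or LGP2, a regulator of both sensors that lacks their signalling domain, moved the other way. It had 0.329, 0.412 and 0.349 CPM with siSURF2, against 0.713, 0.961 and 0.922 CPM with siSCR. DHX58 fell by 1.24 ± 0.41 on the log2 scale with an adjusted p of 0.011, and its groups did not overlap. It rests on few counts, 21 summed over the 3 siSURF2 libraries and 48 over the 3 siSCR libraries, and it did not pass with DESeq2 (adjusted p = 0.05).

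Among the 13 genes for RNA-binding effectors and nucleotide enzymes, 6 fell and 0 rose with siSURF2. No member of this group was higher at an unadjusted p under 0.05 either, and DESeq2 and limma-voom also called 0 higher, with 3 and 6 lower. Of all genes tested, 25.8% were higher and 26.2% lower. These shares are those of the main fit. With ERCC totals, 0 of the 13 were higher and 0 lower, with 0 and 1 at an unadjusted p under 0.05. That scaling called far fewer of all genes as well, with counts given at the end. The summed level of the 13 genes was 351.4, 362.1 and 345.1 CPM with siSURF2, against 370.7, 388.4 and 426.3 CPM with siSCR, without overlap. The largest part of this sum was EIF2AK2 (mean 113.0 CPM with siSURF2 and 122.0 CPM with siSCR), which did not pass. The highest sum was that of siSCR replicate 3, the highest siSCR library for 31 of the 47 genes. How often sums of other genes lie apart was not measured. The median log2 fold change was -0.16. IFIT3, which stabilises IFIT1 on viral RNA, fell most in this group. It had 20.1, 18.8 and 21.1 CPM with siSURF2, against 28.8, 32.3 and 37.1 CPM with siSCR. The groups lay well apart, with a log2 fold change of -0.71 ± 0.08 and an adjusted p of 5.5e-08. IFIT2, another member of the family that binds RNA, fell by 0.41 ± 0.11 (adjusted p = 0.0023). IFIT5 fell by 0.18 ± 0.07 (adjusted p = 0.043), but its adjusted p was 0.087 without siSURF2 replicate 1, 0.2 without siSURF2 replicate 3, 0.054 without siSCR replicate 1 and 0.17 without siSCR replicate 3. The IFIT5 call was also lost with DESeq2, upper-quartile factors, no factors or no filter. IFIT1, the family member that binds viral RNA lacking a methylated cap, did not pass. It had 21.4, 21.3 and 22.7 CPM with siSURF2, against 20.9, 20.8 and 28.7 CPM with siSCR. Its groups overlapped because siSCR replicate 3 was high and the other 2 siSCR libraries were slightly below the siSURF2 libraries.

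ISG20, an RNA exonuclease, had 1.21, 1.34 and 2.05 CPM with siSURF2, against 2.20, 2.72 and 2.31 CPM with siSCR. Its groups did not overlap, with siSURF2 replicate 3 close to the lowest siSCR library, and its log2 fold change was -0.65 ± 0.24 with an adjusted p of 0.028. This call was lost without siSURF2 replicate 1 (adjusted p = 0.14), siSURF2 replicate 2 (0.091) or siSCR replicate 2 (0.12), with DESeq2 (0.077) and with no filter. RSAD2, or viperin, an enzyme that makes a chain-terminating nucleotide, had 3.29, 4.28 and 3.49 CPM with siSURF2, against 3.74, 5.55 and 6.51 CPM with siSCR. Its groups overlapped through siSCR replicate 1. RSAD2 fell, with a log2 fold change of -0.52 ± 0.18 (adjusted p = 0.018), but its adjusted p was 0.089 without siSURF2 replicate 1, 0.054 without siSURF2 replicate 3, 0.074 without siSCR replicate 2 and 0.15 without siSCR replicate 3. CMPK2, its neighbour on chromosome 2 that supplies nucleotides to it, had a log2 fold change of -0.13 ± 0.22 and did not pass. Of the oligoadenylate synthetases, which make a second messenger when they bind double-stranded RNA, OAS3 fell by 0.16 ± 0.06 (adjusted p = 0.042) with overlapping groups. OAS3 missed the threshold without siSURF2 replicate 1 (adjusted p = 0.12), siSURF2 replicate 3 (0.25), siSCR replicate 2 (0.1) or siSCR replicate 3 (0.16). It also missed it with DESeq2, upper-quartile factors, no factors or no filter. OAS1, OAS2 and OASL did not pass, at 0.11, -0.27 and 0.05 on the log2 scale. ZC3HAV1, which targets CpG-rich viral RNA, was nearest to 0 in the group, with 73.3, 73.7 and 72.7 CPM with siSURF2, against 70.0, 74.1 and 80.3 CPM with siSCR. EIF2AK2, or PKR, the kinase that stops translation on double-stranded RNA, had a log2 fold change of -0.11 ± 0.05 and an adjusted p of 0.074.

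**Figure D3:**
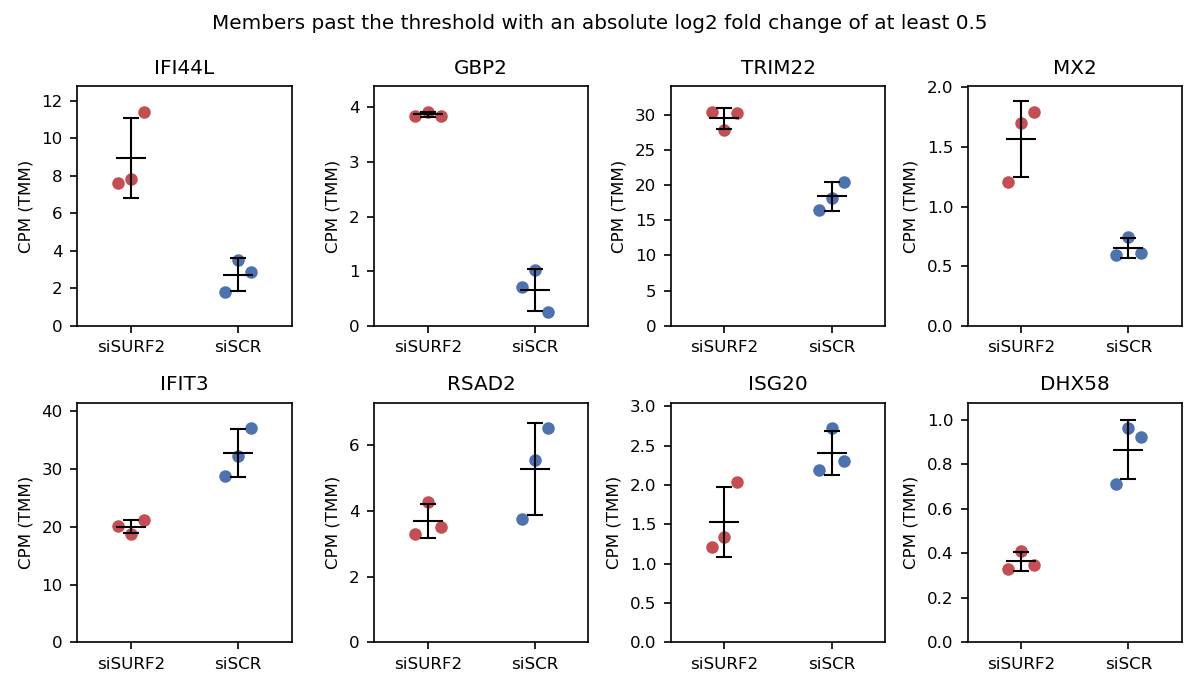
TMM-normalised CPM in each library for the 8 interferon-stimulated genes past the threshold with an absolute log2 fold change of at least 0.5, siSURF2 on the left and siSCR on the right. Points are libraries and bars are the mean ± SD of 3. The groups overlap only for RSAD2, but the 8 genes were chosen for their change, so this is no separate result.

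Among the membrane proteins and GTPases, 3 of the 7 tested rose and 1 fell with siSURF2, against 25.8% and 26.2% of all genes tested. DESeq2 called 2 of the 7 higher and 0 lower. GBP2, a guanylate-binding GTPase that acts on membranes holding pathogens, had 3.84, 3.92 and 3.84 CPM with siSURF2, against 0.713, 1.01 and 0.256 CPM with siSCR. These levels stand for 70, 76 and 77 counts with siSURF2 and 12, 19 and 5 counts with siSCR, and the siSURF2 libraries agreed closely while the siSCR libraries differed. GBP2 was 5.85-fold higher with siSURF2, with a log2 fold change of 2.55 ± 0.28 and an adjusted p of 1.3e-08. GBP1, its paralog on chromosome 1, had 2.14, 2.11 and 1.80 CPM with siSURF2, against 1.37, 1.23 and 1.44 CPM with siSCR. The GBP1 groups did not overlap, but its adjusted p of 0.051 missed the threshold (log2 fold change 0.58 ± 0.25). Of their 50-base stretches, 10.2% in GBP2 and 9.62% in GBP1 occur in other genes, mostly of this family. MX2, a GTPase that blocks nuclear entry of lentiviruses, had 1.21, 1.70 and 1.80 CPM with siSURF2, against 0.594, 0.747 and 0.615 CPM with siSCR. It rose without overlap, with a log2 fold change of 1.26 ± 0.32 and an adjusted p of 0.0014. MX1, which blocks influenza and many other viruses, had a log2 fold change of 0.16 ± 0.24 and an adjusted p of 0.62. BST2, which tethers budding virus, did not pass at 0.34 ± 0.30.

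The IFITM proteins, which hinder virus fusion, differed in direction. IFITM3 had 95.1, 101.0 and 90.2 CPM with siSURF2, against 90.6, 85.2 and 83.3 CPM with siSCR. Its groups overlapped, with a log2 fold change of 0.14 ± 0.06 and an adjusted p of 0.032. The IFITM3 call was lost without siSURF2 replicate 1 (adjusted p = 0.061), siSURF2 replicate 2 (0.14), siSCR replicate 2 (0.078) or siSCR replicate 3 (0.1), and with DESeq2. IFITM2 had a log2 fold change of -0.19 ± 0.07 and an adjusted p of 0.033. The IFITM2 call was lost without siSURF2 replicate 1 (0.16), siSURF2 replicate 3 (0.071), siSCR replicate 1 (0.17) or siSCR replicate 2 (0.059). It was also lost with DESeq2, upper-quartile factors, no factors or no filter. Of their 50-base stretches, 17.4% in IFITM3 and 34.1% in IFITM2 occur in other genes, chiefly each other and IFITM1, so both levels are uncertain. IFITM1 was not tested, with 4, 4 and 5 counts with siSURF2, against 4, 2 and 5 counts with siSCR.

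Among ISG15, the ubiquitin ligases and the ADP-ribosyltransferases, 3 of the 9 tested rose and 1 fell, against 25.8% and 26.2% of all genes tested. TRIM22, a ubiquitin ligase that restricts several viruses, had 30.4, 27.8 and 30.2 CPM with siSURF2, against 16.5, 18.2 and 20.5 CPM with siSCR. It was 1.60-fold higher with no overlap, with a log2 fold change of 0.68 ± 0.08 and an adjusted p of 7.2e-08. Other genes hold 12.1% of the 50-base stretches of TRIM22, chiefly OR56B1. That gene shares 642 exon bases with it on the same strand and had 0 counts in all libraries. TRIM21, the ligase that binds antibody-coated virus in the cytosol, fell by 0.35 ± 0.08 (adjusted p = 0.00035). TRIM25, which ubiquitinates RIGI, was the gene nearest to 0 in this group, with 177.7, 178.4 and 171.2 CPM with siSURF2, against 169.6, 170.1 and 165.6 CPM with siSCR. Its groups did not overlap, yet the difference was small (log2 fold change 0.06 ± 0.05, adjusted p = 0.30). PARP9 and DTX3L, which act as 1 complex, start beside each other on opposite strands of chromosome 3. PARP9, with groups that overlapped slightly, rose by 0.20 ± 0.07 on the log2 scale (adjusted p = 0.013) and DTX3L by 0.15 ± 0.05 (adjusted p = 0.024). PARP9 missed the threshold without siSURF2 replicate 2 (adjusted p = 0.065) or siSCR replicate 1 (0.1). DTX3L missed it without siSURF2 replicate 1 (0.082), siSURF2 replicate 2 (0.063), siSCR replicate 1 (0.09) or siSCR replicate 2 (0.052). Exons of the 2 genes overlap by 217 bases, on different strands. Whether counting used strand is not known, so reads from that overlap cannot be told apart.

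ISG15, the ubiquitin-like protein that gives this system its name, had 20.5, 21.8 and 21.5 CPM with siSURF2, against 17.8, 19.1 and 20.5 CPM with siSCR. It did not pass, with a log2 fold change of 0.15 ± 0.08, a 95% interval from -0.02 to 0.32 and an adjusted p of 0.13. USP18, which removes ISG15 and blocks the interferon receptor, was near 0 at 0.07 ± 0.12, with 23.4% of its 50-base stretches found elsewhere, chiefly in USP41. The ligase HERC6 and the ADP-ribosyltransferase PARP14 did not pass either, at -0.08 and -0.12 on the log2 scale. HERC5, the main ligase for ISG15, was not tested, with 0, 1 and 1 counts with siSURF2 and 0 in all siSCR libraries, where a count of 0 allows up to 3 counts per library, or 0.154 to 0.178 CPM. Of the 2 nuclear body proteins, SP100 rose by 0.15 ± 0.06 on the log2 scale (adjusted p = 0.034), and missed the threshold without siSURF2 replicate 2 (0.062), siSURF2 replicate 3 (0.099), siSCR replicate 1 (0.11) or siSCR replicate 3 (0.06). SP100 also missed it with DESeq2. PML, the scaffold of these bodies, was nearest to 0 of all genes here. It had 41.1, 43.8 and 41.1 CPM with siSURF2, against 46.2, 40.5 and 39.6 CPM with siSCR, with an interval of the log2 fold change from -0.14 to 0.14.

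Of the 8 other genes tested, 2 rose and 2 fell, near the 25.8% and 26.2% of all genes tested. IFI44L, an interferon-induced paralog of IFI44, had 7.63, 7.83 and 11.4 CPM with siSURF2, against 1.78, 3.52 and 2.87 CPM with siSCR. All siSURF2 libraries were above all siSCR libraries, and it was 3.29-fold higher with a log2 fold change of 1.71 ± 0.20 and an adjusted p of 4.6e-07. SAMD9L, an inhibitor of translation and cell growth, rose by 0.37 ± 0.09 (adjusted p = 0.00067). SAMD9, its paralog, did not pass (log2 fold change 0.16 ± 0.10, adjusted p = 0.22), but passed without siSCR replicate 3 (0.26, adjusted p = 0.019). PLSCR1, a membrane protein that blocks virus entry, fell by 0.27 ± 0.06 (adjusted p = 0.00083), and IFI35 fell by 0.31 ± 0.09 (adjusted p = 0.0043). IFI6, a mitochondrial and endoplasmic reticulum protein that was nearest to 0 in this group, had 30.4, 32.4 and 31.1 CPM with siSURF2, against 27.7, 30.4 and 38.7 CPM with siSCR. IFI27 had 0.768, 0.670 and 0.798 CPM with siSURF2, against 0.297, 0.427 and 0.666 CPM with siSCR. Its groups did not overlap, but it did not pass at this depth (log2 fold change 0.66 ± 0.41, adjusted p = 0.18). XAF1, a pro-apoptotic gene, was not tested, with 2, 0 and 2 counts with siSURF2, against 6, 3 and 5 counts with siSCR.

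Neighbouring paralogs did not always move together. The ratio of 2 neighbours was taken within each library, on the log2 scale of counts, for 6 pairs chosen after their values were seen, so the differences are descriptions, with no test. The ratio of IFI44L to IFI44 averaged -0.60 ± 0.11 with siSURF2 and -2.27 ± 0.36 with siSCR (SD, n = 3 each). IFI44 itself, 12.6, 11.2 and 16.7 CPM with siSURF2, against 10.6, 12.9 and 14.7 CPM with siSCR, had overlapping groups and a log2 fold change of 0.08 ± 0.14. The ratio of GBP2 to GBP1 averaged 0.94 ± 0.13 with siSURF2 and -1.23 ± 1.13 with siSCR, and that of MX2 to MX1 averaged -0.38 ± 0.38 with siSURF2 and -1.47 ± 0.25 with siSCR. The IFIT3 to IFIT1 ratio went the other way, at -0.12 ± 0.05 with siSURF2 and 0.49 ± 0.13 with siSCR. The IFITM3 to IFITM2 ratio averaged 1.66 ± 0.07 with siSURF2 and 1.33 ± 0.06 with siSCR. These 5 ratios did not overlap between groups, while that of SAMD9L to SAMD9 did, at -0.76 ± 0.17 with siSURF2 and -0.98 ± 0.11 with siSCR. How often the ratios of other gene pairs lie apart was not measured, and 52.0% of all single genes passed the test. The IFIT cluster on chromosome 10 held 3 genes that fell and 1 that did not pass, and the OAS cluster on chromosome 12 held 1 gene that fell and 2 that did not pass. Of all genes tested, 26.2% were lower.

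**Figure D4:**
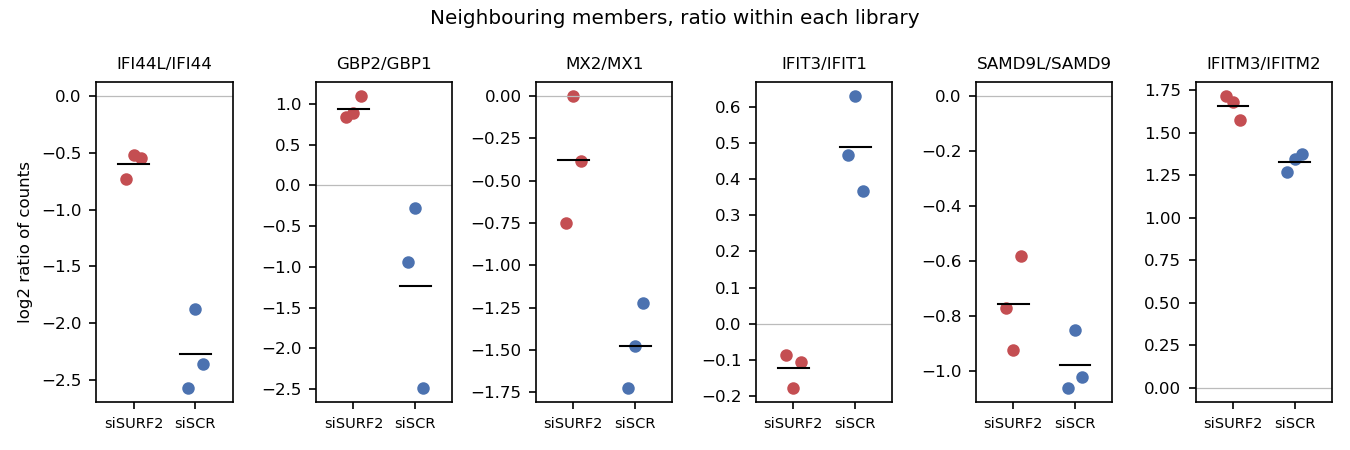
Log2 ratio of counts between 6 pairs of neighbouring interferon-stimulated genes in each library, siSURF2 on the left and siSCR on the right of each panel. Points are libraries, horizontal bars are means of 3, and the axes differ between panels; the groups overlap only for SAMD9L and SAMD9.

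The control libraries did not agree in these genes. Among the 3 siSCR libraries, replicate 3 was the highest for 31 of the 47 genes, against 35.0% of all genes tested. Replicate 1 was the lowest for 27, and the matching share of all genes was not counted. The median of the 47 genes in siSCR replicate 3 was 0.16 above the other 2 siSCR libraries on the log2 scale, against -0.00 for all genes. In siSCR replicate 1 this median was -0.14, against 0.0017 for all genes. For the siSURF2 libraries these medians lay between -0.02 and 0.02. Among them replicates 1, 2 and 3 were the highest for 5, 20 and 21 of the 47 genes, against 29.7%, 38.9% and 31.4% of all genes. Over all genes, siSURF2 replicate 2 stood apart: the chi-square of its counts over its degrees of freedom was 8.76 and 10.3 against the other 2 siSURF2 libraries, while it was 2.87 between those and 2.51 to 4.43 between siSCR libraries. Without siSCR replicate 3, IFIT5, OAS3, RSAD2, IFITM3 and SP100 missed the threshold (adjusted p of 0.17, 0.16, 0.15, 0.1 and 0.06). Leaving out any other library lost as many calls or more, 7 without siSURF2 replicate 1, 5 without siSURF2 replicate 2 or 3, and 6 without siSCR replicate 1 or 2. IFIT3, which was highest in siSCR replicate 3, still passed.

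**Figure D5:**
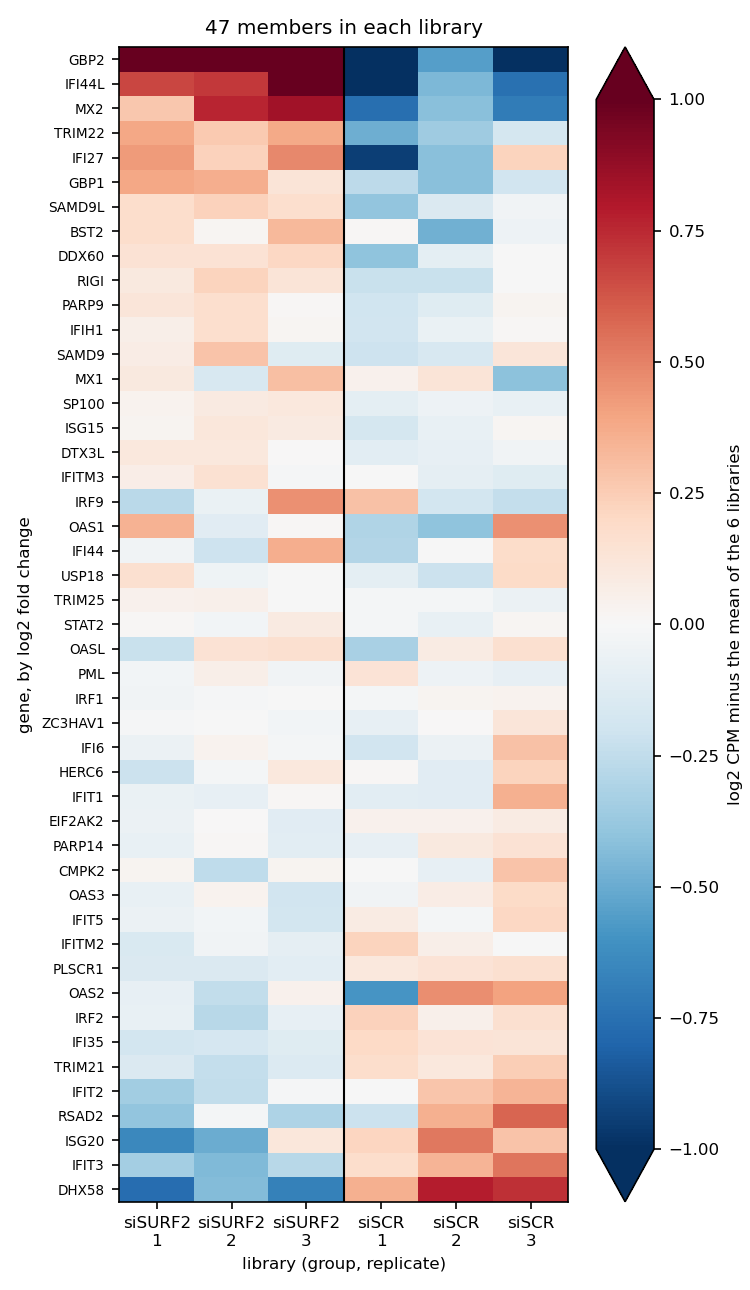
Log2 CPM of each of the 47 tested genes in each library minus the mean of the 6 libraries, genes ordered by log2 fold change and siSURF2 libraries left of siSCR libraries. Red is above and blue below the gene's mean, colours end at -1 and 1, and siSCR replicate 3 is the highest of the siSCR libraries for 31 genes.

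Levels per length differed widely between these genes in both groups. Per kilobase of merged exons, IFITM3 was the highest at 70.8 CPM with siSURF2 and 64.1 with siSCR, followed by IFI6 at 36.2 with siSURF2 and 37.3 with siSCR. ISG15 had 22.6 CPM per kilobase with siSURF2 and 20.3 with siSCR, and IFITM2 had 19.6 with siSURF2 and 22.3 with siSCR. The order of ISG15 and IFITM2 was thus turned round between the groups, by amounts that include the uncertain counting of IFITM2. The lowest tested gene with siSURF2 was DHX58, with 0.0946 CPM per kilobase with siSURF2 and 0.225 with siSCR. The lowest with siSCR was MX2, with 0.120 CPM per kilobase with siSURF2 and 0.04998 with siSCR.

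Other genes of the interferon pathway also changed in both directions. Of 52 such genes, 38 were tested, of which 7 rose, 12 fell and 19 did not pass. The 19 of 38 that passed were near the 52.0% of all genes. None of the 10 interferon ligand genes had enough counts to be tested. IFNE, the epsilon interferon, had 1, 0 and 7 counts with siSURF2, against 0, 1 and 0 counts with siSCR. IFNW1 and IFNL1 had 1 count each in siSCR replicate 3, and the other 7 ligand genes, IFNB1 among them, had 0 counts in all libraries, which allows up to 3 counts per library. Of the 6 receptor chains, IL10RB, shared by the lambda interferon and interleukin receptors, fell by 0.40 ± 0.06 (adjusted p = 6.4e-06). IFNAR1, IFNAR2, IFNGR1, IFNGR2 and IFNLR1 did not pass, with log2 fold changes of -0.03, 0.11, 0.01, 0.04 and 0.32. The smallest adjusted p among pathway genes that rose were those of IFI16, TLR3 and SAMHD1. IFI16, a nuclear DNA sensor, averaged 59.6 ± 2.91 CPM with siSURF2 and 31.7 ± 1.46 CPM with siSCR (SD, n = 3 each), a log2 fold change of 0.91 ± 0.06 (adjusted p = 1.5e-12). TLR3, the endosomal receptor for double-stranded RNA, averaged 12.3 ± 1.15 CPM with siSURF2 and 4.50 ± 0.411 CPM with siSCR, a log2 fold change of 1.45 ± 0.13 (adjusted p = 1.5e-10). SAMHD1, which breaks down deoxynucleotides, averaged 74.7 ± 2.80 CPM with siSURF2 and 51.5 ± 1.46 CPM with siSCR (adjusted p = 6.5e-09).

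Among pathway genes that fell, TRIM27 and IKBKE had some of the smallest adjusted p. TRIM27, a ubiquitin ligase listed with the inhibitors, fell by 0.46 ± 0.06 (adjusted p = 3.7e-07), and IKBKE, a kinase that activates IRF3, fell by 0.50 ± 0.07 (adjusted p = 1.1e-06). Of the 5 kinases and STATs, JAK1 rose by 0.23 ± 0.05, 2 fell and 2 did not pass. Of the 8 inhibitors 4 fell and 0 rose, with 1 higher at an unadjusted p under 0.05 and 0 higher with DESeq2. With ERCC totals, 0 of the 8 were higher and 0 lower, with 0 and 1 at an unadjusted p under 0.05. The shares over all genes tested were 25.8% higher and 26.2% lower in the main fit, and far fewer genes passed with ERCC totals. Of the 19 tested genes of nucleic acid sensing, 6 rose and 5 fell. Among these, STING1, the adaptor of DNA sensing, is named after its values were seen. It averaged 8.23 ± 0.759 CPM with siSURF2 and 13.1 ± 0.847 CPM with siSCR (adjusted p = 1.1e-05).

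Of the 23 changes among the 47 genes, 12 passed under every alternative apart from scaling by ERCC spike-in totals. How many of all genes tested do so was not counted, so 12 cannot be called many or few. These were GBP2, IFI44L, MX2, TRIM22, SAMD9L and RIGI among the genes that rose, and IRF2, IFIT2, IFIT3, TRIM21, IFI35 and PLSCR1 among those that fell. With ERCC totals, GBP2 (log2 fold change 2.57, adjusted p = 5.6e-08) and IFI44L (1.70, adjusted p = 1.5e-05) passed, and 0 of the 47 were called lower, with 2 lower at an unadjusted p under 0.05. Far fewer of all genes tested passed with that scaling as well.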

How the data were processed

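RNA was sequenced from 3 siSURF2 and 3 siSCR libraries of U2OS cells, and the file the authors deposited holds 1 raw, unnormalised count per gene and library. Per the submitters' processing notes, the tools were STAR 2.5.2b and fastp 0.23.1 with no role named, and the build was GRCh38. The sources used here do not give how genes were counted, by which annotation, or whether strand was used. Count columns were matched to samples by their names. Gene symbols came from a name table (56948 identifiers) or GENCODE release 29 (another 499). Coordinates and exon lengths are those of GENCODE release 29, and promoter sequences are RefSeq's on GRCh38.p14. The 92 ERCC spike-in rows, 1.12% to 1.72% of all counts in a library, entered neither library sizes nor tests.

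Counts were filtered with filterByExpr (minimum count 10, minimum total 15), scaled with TMM factors and tested with the quasi-likelihood F-test of edgeR 4.0.16 in R 4.3.3 (robust, 1 group term), with Benjamini-Hochberg adjustment over 17561 genes and a threshold of 0.05. The SE of a gene is its absolute unshrunk log2 fold change over the square root of F. CPM are given per library or as mean ± SD over 3. At these depths 3 counts, the limit that a count of 0 allows, equal 0.150 to 0.178 CPM, and this limit covers counting error only. The program was tested on simulated data.

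The genes and lists were chosen with earlier results of these data known. Values in every library are given for the transcription factors, for genes past the threshold with an absolute log2 fold change of at least 0.5 and for the gene nearest to 0 in each role at 5 CPM or more. Such values for IFIT1, GBP1, ISG15, IFI27 and IFI44 were added after they were seen. Of the pathway genes, up to 3 per direction with the smallest adjusted p are named, with ligands and receptors; a result that the rule takes is not reported here. Alternatives were RLE, upper-quartile, no factors and ERCC totals, no filter and a 1 CPM filter, DESeq2 1.42.0, limma-voom (limma 3.58.1), a replicate block and leaving out each library. Leaving out both libraries numbered 3 was added after seeing the data.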

Additional observations from a re-analysis of the deposited data

How the results depend on the processing

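Under 16 alternatives no gene changed direction past the threshold. Scaling by ERCC spike-in totals moved the counts most, to 2 higher and 0 lower of the 47 interferon-stimulated genes (4 and 2 at an unadjusted p under 0.05) and to 802 higher and 825 lower of all genes, against 4531 and 4596 with TMM; the cause was not tested. DESeq2 called 7 of the 47 lower, against 12 with edgeR. Leaving out 1 library gave 7 to 12 higher and 7 to 11 lower, where fewer samples enter the fit. The median log2 fold change of the 47 genes ran from -0.02 to 0.06 in those fits. It was 0.10 with upper-quartile factors, which also raised the count higher to 15, and that of all genes to 5154. With the replicate number as a block, 11 were higher and 12 lower, so the block changed no count. Same-numbered siSURF2 and siSCR libraries did not deviate together across genes (correlations 0.0035, -0.0918 and -0.0389). In both groups, however, replicate 3 had the lowest ERCC share and the most counts assigned to genes, and replicate 1 had the fewest such counts. The labels do not state whether same-numbered libraries were handled together, and this was not tested. Genes under about 1 CPM, DHX58, MX2 and GBP2 among them in siSCR, rest on few counts, and IRF7, IFITM1, HERC5 and XAF1 could not be tested at this depth. At most 3 libraries a group and no cells without siRNA limit all of these comparisons.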
